A study of Homo sapiens with 12 samples.

Results

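The genes described here are 36 genes of the G2/M phase and mitosis, out of 13951 genes tested on bead arrays of human embryonic stem cells. They were given as a list of names, and each was represented by its brightest detected probe. All 36 were detected on all 12 arrays, so the filter on dim probes removed none of them. Total RNA was hybridised to Illumina bead arrays from H9 and CT2, both lines derived from human embryos. Each line had 2 arrays untreated, 2 with a mismatch shRNA (a short hairpin RNA with mismatches to its target, the control for the hairpin itself) and 2 with knockdown of JMJD1C. JMJD1C is a member of the jumonji family of nuclear proteins related to histone demethylases. The labels name 1 knockdown treatment and do not give the hairpin sequence, the vector, the time after treatment, or whether the hairpin cultures were clones or pools. All 6 groups are bulk cultures, and nothing in the labels says that the 2 arrays of a group came from separate cultures, so a p-value here speaks of the spread among arrays, which may be technical.

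Entry into mitosis is driven by CDK1 bound to cyclin A or cyclin B, and is then carried through by the Polo and Aurora kinases, the kinetochores, the spindle and the anaphase-promoting complex. The mRNAs of most of these proteins rise in late S phase and G2 and are shut off in G1, largely through promoters that hold a cell cycle genes homology region (CHR) and CCAAT boxes, read by the DREAM and MYB-MuvB complexes, FOXM1 and NF-Y. Human embryonic stem cells have a short G1 phase and divide rapidly, so these genes are abundant in them.

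Levels are given as log2 intensity after background correction and quantile normalization, and a difference of 1 on this scale is a doubling. A gene is called changed where its adjusted p was under 0.05 (limma, Benjamini-Hochberg over all 13951 genes, two-sided). JMJD1C itself fell by 1.28 ± 0.19 (SE) in the knockdown against the mismatch arrays, to 41.1% of the mismatch level (limma adjusted p = 0.000726), and on every knockdown array it was below every other array. Of 9 embryonic stem cell markers, 8 were measured, and all 8 were detected on all 12 arrays. Between 44.7% and 47.3% of the 47314 probes were detected per array. Replicates correlated at r = 0.967 to 0.991 across genes. The lowest of these belonged to CT2 mismatch, whose replicate 2 correlated best with an untreated H9 array (r = 0.971) and lay away from the other CT2 arrays on the first principal component (-20.8, against 17.3 to 40.6 for the other CT2 arrays and -44.1 to -5.35 for H9). Calls that it changed, and member values that it moved by over 1.5 times in knockdown against mismatch, are given below without it. H9 untreated replicate 2, CT2 mismatch replicate 1 and CT2 knockdown replicate 2 also correlated best with an array of another group, in their own line. These best correlations were r = 0.985, 0.976 and 0.987. The summed intensity of the stem cell markers was 127214 to 138881 on the H9 knockdown arrays against 143303 to 153384 on H9 mismatch, and 153206 to 154630 against 137855 to 144482 in CT2. In knockdown against mismatch 1 of these 8 fell in H9, 1 rose in CT2 and 0 were called as the mean of both lines. Markers of other cells moved with the hairpins in places. The summed intensity of 8 fibroblast markers was 9445 to 9988 on the H9 mismatch arrays and 13664 to 14492 on the H9 knockdown arrays, and 8443 to 10561 against 10813 to 13195 in CT2, with COL3A1, LUM and FBN1 detected on no array. Of the 5 of these markers that could be tested, 1 rose and 1 fell in the knockdown. The sum of 5 endoderm markers was 559 to 598 on the CT2 mismatch arrays and 1736 to 1769 on the CT2 knockdown arrays, with SOX17, GATA4 and GATA6 detected on none. It was 1120 to 1336 on the untreated CT2 arrays. In H9 it overlapped, at 786 to 1119 with the mismatch shRNA and 827 to 1225 with the knockdown. Only 2 of the 5 could be tested, and in CT2 knockdown against mismatch 1 rose, at 1.96, and the other stood at 0.081. The part of these markers in the results below was not tested.

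The promoters shown are those of the 5 members called in knockdown against mismatch, over both lines or in CT2. RefSeq windows on GRCh38.p14 were found for 30 of the 36 members, each running from 250 bases before the annotated start to 20 bases into the gene (270 bases). AURKA, BUB3, TTK, TPX2, BIRC5 and UBE2C were not matched. The motifs searched on both strands were the CHR, spelled TTTGAA or TTCGAA, and the CCAAT box, spelled CCAAT. A CHR stood in 20 of the 30 member promoters (66.7%) and in 15.4% of the 27305 promoters of the same length. A CCAAT box stood in 24 (80.0%), against 34.2% of all promoters, and both together stood in 18 (60.0%), against 5.8%. TOP2A lies at chr17:40417877-40418146 (minus strand), CENPA at chr2:26785806-26786075 (plus), CDC20 at chr1:43358731-43359000 (plus), BUB1 at chr2:110678044-110678313 (minus) and BUB1B at chr15:40160819-40161088 (plus). Each window is written along the strand of its gene, with CHR and CCAAT matches on either strand in capitals.
TOP2A: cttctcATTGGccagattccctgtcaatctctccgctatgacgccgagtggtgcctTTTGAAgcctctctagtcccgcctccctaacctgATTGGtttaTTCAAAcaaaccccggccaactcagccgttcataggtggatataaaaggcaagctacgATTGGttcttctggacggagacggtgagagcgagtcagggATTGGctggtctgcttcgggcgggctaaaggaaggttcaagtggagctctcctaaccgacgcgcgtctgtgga
CENPA: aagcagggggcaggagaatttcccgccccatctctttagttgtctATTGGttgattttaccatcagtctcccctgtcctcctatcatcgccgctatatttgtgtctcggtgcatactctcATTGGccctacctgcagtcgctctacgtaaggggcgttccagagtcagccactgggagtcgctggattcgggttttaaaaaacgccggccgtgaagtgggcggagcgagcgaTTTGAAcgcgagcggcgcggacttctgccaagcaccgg
CDC20: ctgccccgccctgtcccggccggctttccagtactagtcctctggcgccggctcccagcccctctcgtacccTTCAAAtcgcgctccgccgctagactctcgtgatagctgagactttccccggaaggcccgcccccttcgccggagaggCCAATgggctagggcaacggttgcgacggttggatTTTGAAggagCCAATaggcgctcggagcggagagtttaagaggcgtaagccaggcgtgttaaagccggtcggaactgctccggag
BUB1: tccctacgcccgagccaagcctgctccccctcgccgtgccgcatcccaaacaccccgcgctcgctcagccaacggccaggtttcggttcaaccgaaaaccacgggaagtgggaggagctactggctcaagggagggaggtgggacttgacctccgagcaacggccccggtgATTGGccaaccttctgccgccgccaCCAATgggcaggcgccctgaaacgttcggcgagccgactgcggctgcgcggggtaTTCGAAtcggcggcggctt
BUB1B: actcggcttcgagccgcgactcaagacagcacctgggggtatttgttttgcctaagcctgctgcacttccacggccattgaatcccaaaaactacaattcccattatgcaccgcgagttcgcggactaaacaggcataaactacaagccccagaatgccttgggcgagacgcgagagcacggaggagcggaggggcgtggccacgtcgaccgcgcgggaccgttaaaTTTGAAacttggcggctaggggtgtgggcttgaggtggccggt
The TOP2A window held 2 CHR matches and 4 CCAAT boxes, and the CDC20 window held 2 of each. The CENPA and BUB1 windows each held 1 CHR and 2 CCAAT boxes, and the BUB1B window held 1 CHR and no CCAAT box. A match is a string of letters and not evidence of binding. In the knockdown against mismatch comparison the members with a CHR had a median log2 difference of -0.25, with 16 of 20 below 0, and those without one had a median of -0.16, with 9 of 10 below 0.

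By the mean over the 36 genes after quantile normalization, the arrays of the mismatch shRNA stood highest. The mean log2 level over the 36 genes was 12.12 ± 0.02 (SD, n = 2) in H9 mismatch, against 11.96 ± 0.02 untreated and 11.94 ± 0.02 in the knockdown. In CT2 it was 12.06 ± 0.04 in mismatch, against 11.91 ± 0.10 untreated and 11.88 ± 0.03 in the knockdown. On the individual arrays the H9 means were 11.97 and 11.94 untreated, 12.14 and 12.10 with the mismatch shRNA, and 11.96 and 11.93 with the knockdown. The CT2 means were 11.84 and 11.98 untreated, 12.02 and 12.09 with the mismatch shRNA, and 11.90 and 11.86 with the knockdown. In both lines the mismatch arrays lay above the untreated and the knockdown arrays without overlap, while the untreated and knockdown arrays overlapped. Over all genes the array means ran from 9.09 to 9.18. Array means of the 36 genes were not taken under median scaling, where the members' median differences given below were smaller. The median over the 36 genes did not separate the groups: on the H9 arrays it was 11.94 and 11.97 untreated, 12.14 and 11.87 with the mismatch shRNA, and 11.77 and 12.07 with the knockdown. On the CT2 arrays it was 11.91 and 12.08, 11.93 and 11.97, and 12.05 and 11.96 in the same order. In these bulk samples, fewer cells in G2 and mitosis and less of these RNAs per cell cannot be told apart.

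**Figure D1:**
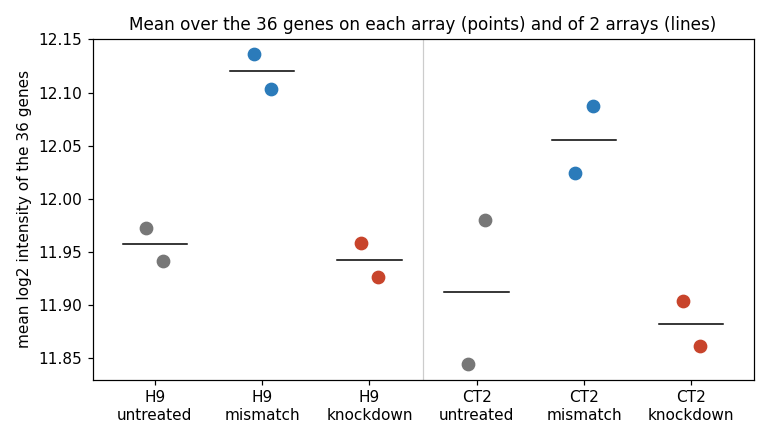
Mean log2 intensity of the 36 genes on each array (points) with the mean of the 2 arrays of each group (lines), by line and treatment. After quantile normalization the mismatch arrays sit at 12.02 to 12.14 and all other arrays at 11.84 to 11.98.

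Knockdown was first compared with the mismatch shRNA, its matched control, as the mean of both lines. Of the 36 genes, 2 fell, TOP2A and CENPA, and 0 rose, in a comparison that called 6.57% of all genes (3.38% lower and 3.19% higher). The share of members called (5.56%) was close to that background. The members' fitted differences leaned one way: 29 of 36 were below 0, against 48.2% of all genes, with a median of -0.20 against 0.01 for all genes. When arrays were scaled to a common median in place of quantile normalization, 20 of the 36 were below 0, and CDK1, CDC25C, PLK1, BUB3, KIF11, KIF20A, KIF23, KIF2C and CENPE changed sign. Over all genes the median was 0.12 under that scaling, and 26 of the 36 lay below it. Of the 36, 12 had an unadjusted p under 0.05, against 21.5% of all genes. A further count was of arrays that do not overlap: 10 members lay below the mismatch arrays in both lines without overlap (TOP2A, CCNB2, CDC25B, AURKA, CENPA, NUSAP1, UBE2C, ECT2, DLGAP5 and HJURP), against 8.43% of all genes, and 1 lay above in both lines (BIRC5), against 8.56%. The number of members called changed when single arrays were left out, and so did the number called among all genes. With any single array left out, TOP2A stood at -0.76 to -0.66 and CENPA at -0.60 to -0.49. Without CT2 mismatch replicate 2, the array that stood apart, 14 uncalled members moved by over 1.5 times. TPX2, CCNB1, ANLN, CDC25C and HMMR came closer to 0, at -0.081, -0.054, -0.16, -0.050 and 0.041. CCNA2, TTK, CDK1, PLK1, KIF2C, BUB3 and KIF20A went further from it, at 0.21, 0.20, -0.17, -0.20, -0.22, -0.097 and -0.081. KIF23 changed sign, from -0.066 to 0.047, and so did CCNF, from 0.078 to -0.014.

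The mismatch arrays were next compared with the untreated arrays, which asks what the control hairpin itself did. TOP2A rose and 0 members fell, where 1.19% of all genes were called (0.573% higher and 0.616% lower). Of the 36 fitted differences, 28 were above 0, against 52% of all genes, with a median of 0.14 against 0.01 for all genes. Under median scaling 22 were above 0, with a median of 0.051 against -0.036 for all genes. As reported, 11 members had an unadjusted p under 0.05, against 16% of all genes. TOP2A, AURKA, AURKB, CENPA, MKI67 and CKS2 were above the untreated arrays in both lines without overlap, 6 members against 5.12% of all genes, and 0 were below in both, against 3.51%. The mismatch arrays enter this comparison and the previous one with opposite sign, so the 2 sets of values are not independent.

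Knockdown against untreated uses no mismatch array. None of the 36 genes was called in the limma test, where 3.43% of all genes were, and 0 of the 36 had an unadjusted p under 0.05, against 16.5% of all genes. The members' median was -0.05 against 0.03 for all genes, with 22 below 0, against 45.4% of all genes, and 14 above. The smallest p belonged to ECT2, at -0.44 ± 0.22 (limma adjusted p = 0.337). These misses do not show equal levels: the 95% interval of TOP2A ran from -0.42 to 0.16, that of CDK1 from -0.24 to 0.31 and that of CCNB1 from -0.78 to 0.08. Without H9 untreated replicate 2, ECT2 alone was called.

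**Figure D2:**
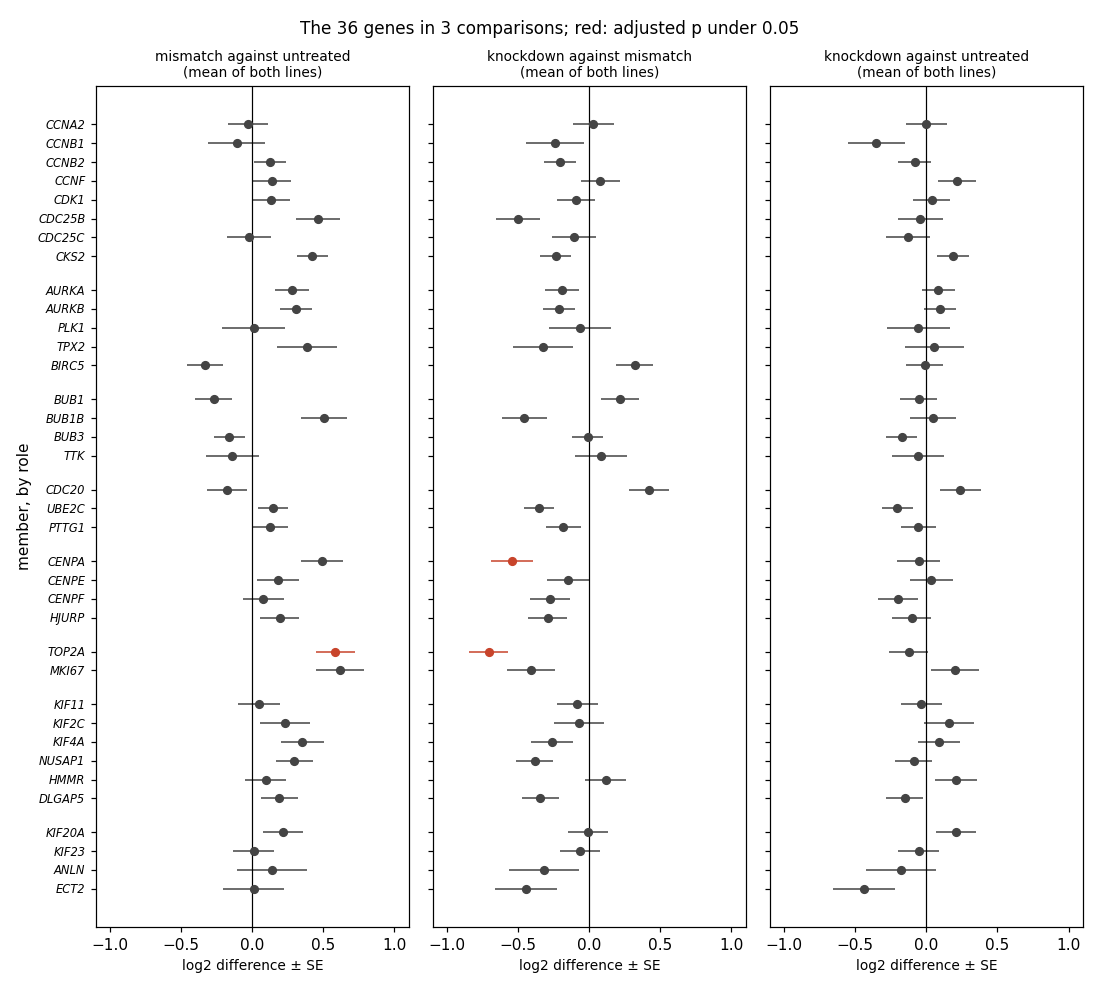
Log2 difference ± SE of each of the 36 genes, as the mean of both lines, in 3 comparisons, with genes ordered by role and those with adjusted p under 0.05 in red. Most points lie right of 0 for mismatch against untreated and left of 0 for knockdown against mismatch, and TOP2A and CENPA are the genes in red in the middle panel.

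The mitotic chromosome genes held TOP2A, the member with the largest difference between hairpins as the mean of both lines. TOP2A encodes topoisomerase II alpha, which untangles sister DNA and helps to condense chromosomes (Entrez 7153, chromosome 17). Its log2 level on the H9 arrays was 13.60 and 13.18 untreated, 13.63 and 13.73 with the mismatch shRNA, and 12.97 and 13.05 with the knockdown. On the CT2 arrays it was 12.55 and 13.09 untreated, 13.78 and 13.62 with the mismatch shRNA, and 13.04 and 12.85 with the knockdown. In both lines every mismatch array was above every untreated and every knockdown array. TOP2A fell by 0.71 ± 0.14 (SE) in the knockdown against mismatch, to 61.2% of the mismatch level (limma adjusted p = 0.00473). By line the difference was -0.67 ± 0.19 in H9 (limma adjusted p = 0.0950) and -0.75 ± 0.19 in CT2 (limma adjusted p = 0.0382), and the 2 lines differed by 0.08 ± 0.27, less than its error. It rose by 0.58 ± 0.14 in the mismatch against untreated (limma adjusted p = 0.0487), and stood at -0.13 ± 0.14 in knockdown against untreated (limma adjusted p = 0.721). The fall against mismatch was past the threshold in 22 of 23 alternative settings and missed it under median scaling (-0.55, limma adjusted p = 0.0565). The rise over untreated passed in 5 of 23, with adjusted p from 0.00556 to 0.238; among the settings that leave out 1 array it passed only without H9 untreated replicate 1 or CT2 mismatch replicate 2. MKI67, the Ki-67 protein that coats mitotic chromosomes and the usual marker of proliferation, passed no comparison. Its values were -0.41 ± 0.17 against mismatch (limma adjusted p = 0.167) and 0.61 ± 0.17 for mismatch against untreated (limma adjusted p = 0.0811).

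All 4 centromere and kinetochore genes had fitted values below 0 in knockdown against mismatch, 3 of 4 under median scaling, and 1 of them was called. CENPA is the histone H3 variant that marks the centromere (Entrez 1058, chromosome 2). It read 10.36 and 10.68 untreated, 10.94 and 11.16 with the mismatch shRNA, and 10.72 and 10.58 with the knockdown on the H9 arrays. Its CT2 values were 10.47 and 10.74 untreated, 11.12 and 10.99 with the mismatch shRNA, and 10.48 and 10.26 with the knockdown. The mismatch arrays were again the highest in each line, with no overlap. CENPA fell by 0.54 ± 0.15 against mismatch, to 68.6% (limma adjusted p = 0.0381). Within the lines it stood at -0.40 in H9 and -0.68 in CT2. It was 0.49 ± 0.15 for mismatch against untreated (limma adjusted p = 0.113) and -0.05 for knockdown against untreated (limma adjusted p = 0.903). A separate CENPA probe gave -0.56 against mismatch. The call was lost in 12 of 23 alternatives, with adjusted p from 0.0110 to 0.343; it was kept without either H9 untreated or either CT2 mismatch array and lost without any 1 of the other 8 arrays, at -0.60 to -0.49. HJURP, the chaperone that places CENPA, stood at -0.29, CENPF, a kinetochore protein of G2, at -0.28, and CENPE, the kinetochore motor, at -0.15, with limma adjusted p from 0.227 to 0.639.

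**Figure D3:**
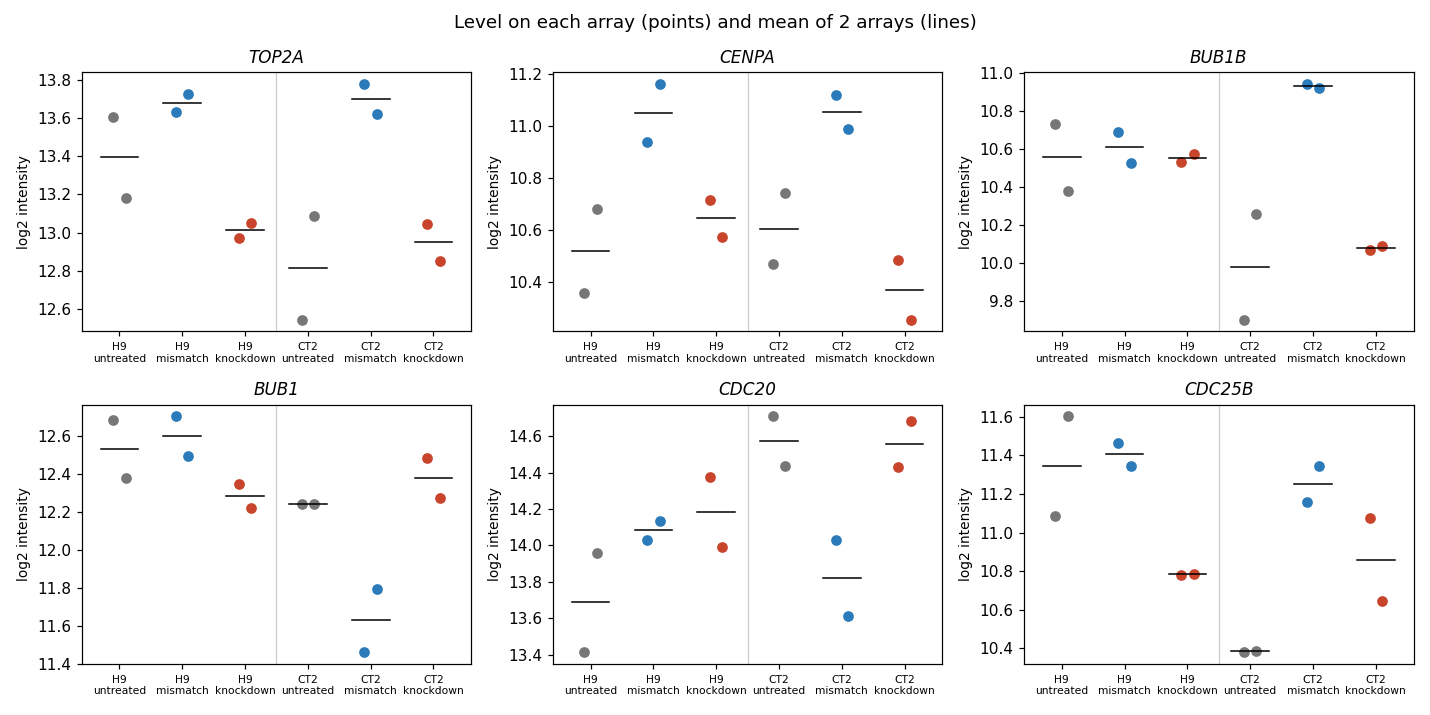
Log2 intensity of TOP2A, CENPA, BUB1B, BUB1, CDC20 and CDC25B on each array (points) with the mean of 2 arrays (lines), by line and treatment; each panel has its own axis range. TOP2A and CENPA are highest in the mismatch arrays of both lines, while in CT2 BUB1 and CDC20 are lowest there.

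The spindle checkpoint genes did not move together. BUB1 and BUB1B are related: BUB1 is the kinase that marks the kinetochore for the checkpoint, and BUB1B (BubR1) is part of the complex that holds back the anaphase-promoting complex. In H9, BUB1 read 12.68 and 12.38 untreated, 12.70 and 12.49 with the mismatch shRNA, and 12.35 and 12.22 with the knockdown. The CT2 arrays gave 12.24 and 12.24 untreated, 11.46 and 11.80 with the mismatch shRNA, and 12.48 and 12.27 with the knockdown. The 2 CT2 mismatch arrays were the lowest of all 12, and in H9 the knockdown arrays were lowest. BUB1 rose by 0.75 ± 0.19 in CT2 knockdown against CT2 mismatch (limma adjusted p = 0.0336) and stood at -0.31 ± 0.19 in H9 (limma adjusted p = 0.571). It was the only member below mismatch in H9 and above it in CT2 without overlap, a pattern held by 3.64% of all genes, and 0 members held the reverse pattern (2.8%). Its difference between lines, H9 minus CT2, was -1.06 ± 0.26, and missed the threshold over all genes (limma adjusted p = 0.102, unadjusted p = 9.38e-04).

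BUB1B took the other direction in CT2. Its H9 levels were 10.73 and 10.38 untreated, 10.69 and 10.53 with the mismatch shRNA, and 10.53 and 10.57 with the knockdown. Its CT2 levels were 9.70 and 10.26 untreated, 10.95 and 10.92 with the mismatch shRNA, and 10.07 and 10.09 with the knockdown. The H9 groups overlapped, and in CT2 the mismatch arrays were the highest while untreated and knockdown arrays overlapped. BUB1B fell by 0.86 ± 0.23 in CT2 knockdown against mismatch (limma adjusted p = 0.0415) and stood at -0.06 ± 0.23 in H9 (limma adjusted p = 0.972), with a difference between lines of 0.80 ± 0.32 (limma adjusted p = 0.372). The CT2 call was lost in 14 of 23 alternatives, among them median scaling (-0.66, limma adjusted p = 0.247). TTK, the kinase MPS1 that starts the checkpoint, stood at 0.08 as the mean of both lines. BUB3, the partner of BUB1 and BUB1B, stood at -0.01 by its brightest probe, while its 3 other kept probes gave -0.20, -0.32 and -0.57. In CT2 those 3 were at -0.74, -0.35 and -0.82, and the brightest probe was at 0.21.

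Among the regulators of anaphase, CDC20 activates the anaphase-promoting complex, UBE2C is its ubiquitin-conjugating enzyme and PTTG1 (securin) is its substrate. CDC20 on the H9 arrays read 13.41 and 13.96 untreated, 14.03 and 14.14 with the mismatch shRNA, and 14.37 and 13.99 with the knockdown. On the CT2 arrays it read 14.71 and 14.44 untreated, 14.03 and 13.61 with the mismatch shRNA, and 14.43 and 14.68 with the knockdown. In CT2 the mismatch arrays were the lowest, and in H9 the mismatch arrays lay within the range of the knockdown arrays. CDC20 rose by 0.73 ± 0.20 in CT2 (limma adjusted p = 0.0471) and stood at 0.10 ± 0.20 in H9 (limma adjusted p = 0.929), a difference between lines of -0.63 ± 0.28 (limma adjusted p = 0.423). As the mean of both lines it was 0.42 ± 0.14 (limma adjusted p = 0.0908), and it was called higher under median scaling (0.54, limma adjusted p = 0.0345) and without CT2 mismatch replicate 1 (0.52, limma adjusted p = 0.0231). UBE2C stood at -0.35 ± 0.11 (limma adjusted p = 0.0589), and PTTG1 at -0.18 ± 0.12 (limma adjusted p = 0.436). The dimmer kept probe of each gave -0.0019 for UBE2C and -0.31 for PTTG1. UBE2C was also the 1 member whose knockdown arrays were below the untreated arrays in both lines without overlap, against 6.53% of all genes, and 0 members were above in both, against 8.44%.

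Taken by line, the knockdown against mismatch called 0 of 36 members in H9, where the limma test called 2.55% of all genes and 4 members had an unadjusted p under 0.05, against 11.9% of all genes. In CT2 it called 4, with 4.57% of all genes called, and 11 members had an unadjusted p under 0.05, against 20.5% of all genes: CDC20 and BUB1 rose (2.77% of all genes) and TOP2A and BUB1B fell (1.81%). The fitted differences were below 0 for 31 members in H9 (49.3% of all genes), with a median of -0.12, and for 26 in CT2 (47.5% of all genes), with a median of -0.22. Calls in 1 line and not in the other do not show a difference between lines. The test of that difference called 0 members (0.416% of all genes), and 3 members had an unadjusted p under 0.05 (BUB1, BUB1B and CDC20), against 11% of all genes. The CT2 calls also ended under other settings: 0 members were called without the trend and robust settings, with array weights and with the replicate number as a block, and 2 under median scaling and with no detection filter. Leaving out single arrays ended them too. They were all lost without any 1 of the H9 mismatch, H9 knockdown or CT2 knockdown arrays. All but TOP2A were lost without either CT2 untreated array. No H9 or untreated array enters these CT2 differences, so omitting such an array acts through the shared normalization and estimate of the spread. Without H9 mismatch replicate 1 the differences were -0.75 for TOP2A, 0.75 for BUB1, 0.74 for CDC20 and -0.86 for BUB1B. These were near the values as reported. Without CT2 mismatch replicate 1, CDC20 and BUB1B were kept, TOP2A and BUB1 were lost and TPX2 was gained. Only BUB1 was kept without CT2 mismatch replicate 2, the array that stood apart. Without that array the CT2 difference of BUB1 was 0.92 (limma adjusted p = 0.0279), that of CDC20 was 0.52 (limma adjusted p = 0.226), that of BUB1B was -0.88 (limma adjusted p = 0.0972) and that of TOP2A was -0.83 (limma adjusted p = 0.0619).

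**Figure D4:**
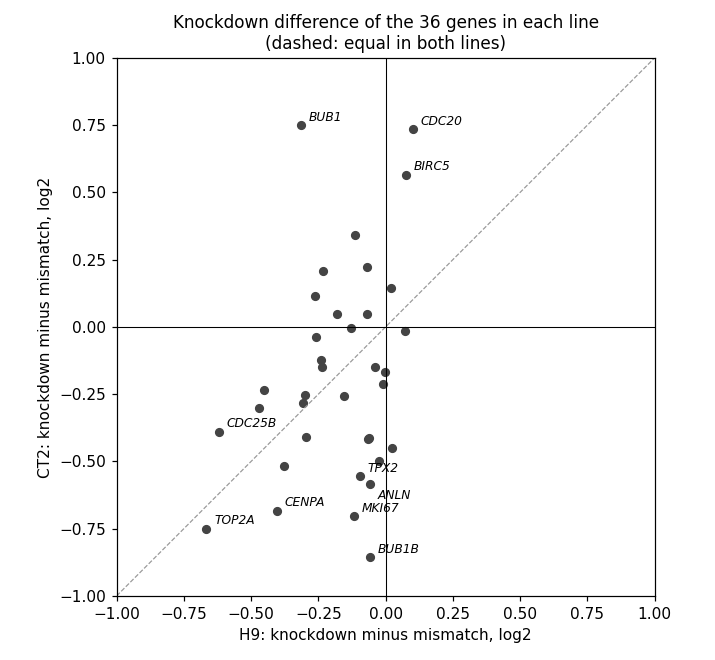
Knockdown minus mismatch difference (log2) of each of the 36 genes in H9 (horizontal axis) and in CT2 (vertical axis), with the dashed line where both are equal and genes beyond 0.55 in either line named. TOP2A, CENPA and CDC25B lie below 0 in both lines, and BUB1 and CDC20 have the highest CT2 differences.

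The cyclins and the controls of CDK1 showed 0 calls between hairpins. In knockdown against mismatch 6 of 8 were below 0, 4 of 8 under median scaling. CDK1, the kinase that drives mitosis, stood at -0.09 with a 95% interval from -0.37 to 0.18. CCNB1 (cyclin B1) stood at -0.24 (-0.67 to 0.19) and CCNA2 (cyclin A2) at 0.03 (-0.27 to 0.33). CDC25B, the phosphatase that first activates CDK1 at the onset of mitosis, read 11.09 and 11.60 untreated, 11.46 and 11.35 with the mismatch shRNA, and 10.78 and 10.79 with the knockdown in H9. In CT2 the levels were 10.38 and 10.39 untreated, 11.16 and 11.34 with the mismatch shRNA, and 11.07 and 10.65 with the knockdown. Its knockdown arrays were below the mismatch arrays in each line, and its untreated arrays were near the mismatch level in H9 and far under it in CT2. The difference from mismatch was -0.51 ± 0.16 (limma adjusted p = 0.0619). It passed the threshold without either H9 untreated array (limma adjusted p = 0.0364 and 0.0366) and without CT2 mismatch replicate 1 (limma adjusted p = 0.0365). CKS2, a small subunit of the CDK complexes, was 0.42 ± 0.11 for mismatch against untreated (limma adjusted p = 0.0682) and -0.24 for knockdown against mismatch. CCNF, the F-box cyclin that targets other cell cycle proteins for degradation, is described with the lines below.

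Of the mitotic kinases and their partners, 4 of 5 were below 0 in knockdown against mismatch, 3 of 5 under median scaling, and none was called. AURKA, the spindle pole kinase, stood at -0.19, AURKB, the kinase of the chromosomal passenger complex, at -0.21, and TPX2, the activator of AURKA, at -0.33. The CT2 mismatch arrays of TPX2 read 12.31 and 13.29, and its difference was -0.57 without replicate 1 of them (limma adjusted p = 0.0440) and -0.081 without replicate 2 (limma adjusted p = 0.851). PLK1, the Polo kinase, stood at -0.07 with a wide interval (-0.53 to 0.40). The exception was BIRC5 (survivin), the passenger complex subunit that binds AURKB. On the H9 arrays BIRC5 read 11.34 and 11.68 untreated, 11.63 and 11.58 with the mismatch shRNA, and 11.66 and 11.71 with the knockdown. On the CT2 arrays it read 12.42 and 12.40 untreated, 11.52 and 11.78 with the mismatch shRNA, and 12.25 and 12.18 with the knockdown. In CT2 the mismatch arrays were about as low as H9, and the untreated and knockdown arrays were well above them. The knockdown against mismatch was 0.32 ± 0.13 (limma adjusted p = 0.160). It came to 0.08 within H9 and 0.57 within CT2 (limma adjusted p = 0.0907).

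The kinesins and spindle proteins were below 0 in 5 of 6 cases in knockdown against mismatch, 3 of 6 under median scaling, with none called. NUSAP1, which bundles spindle microtubules, stood at -0.39 ± 0.13 (limma adjusted p = 0.0845), DLGAP5 (HURP), which stabilises fibres at the kinetochore, at -0.34 (limma adjusted p = 0.135), and KIF4A, the chromokinesin, at -0.26. KIF2C, the microtubule depolymerase MCAK, stood at -0.07, and KIF11 (Eg5), the motor that separates the spindle poles, at -0.08 and at 0.10 under median scaling. HMMR, a spindle assembly factor also known as a hyaluronan receptor, had 2 probes that disagreed in sign. Its brighter probe read 11.71 and 11.70 untreated, 12.28 and 11.94 with the mismatch shRNA, and 11.94 and 12.04 with the knockdown in H9. In CT2 that probe read 11.92 and 12.34 untreated, 12.06 and 11.77 with the mismatch shRNA, and 12.09 and 12.43 with the knockdown. In H9 the knockdown arrays overlapped the mismatch arrays, and in CT2 both were above them. The fit gave 0.11 for this probe and -0.25 for the other. Of the 15 members with more than 1 kept probe, HMMR was the 1 whose probes disagreed in this comparison. In H9 alone 3 members had probes of opposite sign, in CT2 alone 4, and between the untreated lines 7.

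Among the cytokinesis genes, ECT2 and ANLN had the largest replicate gaps of the 36. ECT2 activates RhoA at the division plane, ANLN (anillin) scaffolds the contractile ring, and KIF20A and KIF23 are kinesins of the central spindle. ECT2 read 12.21 and 11.01 untreated, 11.36 and 11.55 with the mismatch shRNA, and 10.96 and 11.19 with the knockdown in H9. In CT2 it read 11.36 and 11.82 untreated, 11.59 and 11.94 with the mismatch shRNA, and 11.06 and 11.44 with the knockdown. H9 untreated replicate 1 stood above all other arrays, 1.20 over its replicate. ANLN read 11.53 and 10.38 untreated, 10.93 and 10.27 with the mismatch shRNA, and 10.37 and 10.72 with the knockdown in H9. Its CT2 values were 9.99 and 10.50 untreated, 10.55 and 11.20 with the mismatch shRNA, and 10.38 and 10.21 with the knockdown. Here too H9 untreated replicate 1 was the highest, 1.15 over its replicate, and the knockdown arrays lay within the range of the mismatch arrays in H9 and below them in CT2. Against mismatch the knockdown stood at -0.45 ± 0.22 for ECT2 (limma adjusted p = 0.251) and -0.32 ± 0.25 for ANLN (limma adjusted p = 0.508). KIF23 stood at -0.07 by its brightest probe and at -0.46 by its dimmer kept probe, and KIF20A stood at -0.01. All 4 genes were below 0 in that comparison, 2 of 4 under median scaling.

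The untreated lines were compared with each other. H9 and CT2 stand in separate blocks of the deposited table, so line and block cannot be told apart. Of the 36, 5 were called, where 14.7% of all genes were. CDC25B and KIF11 were higher in H9 (5.99% of all genes), and CCNF, CDC20 and BIRC5 were lower (8.74%). Of the 36, 17 had an unadjusted p under 0.05, against 29.3% of all genes, and 26 did not overlap between the lines, against 58.1%. The H9 minus CT2 difference was 0.96 ± 0.22 for CDC25B (limma adjusted p = 0.00929), 0.89 ± 0.20 for KIF11 (limma adjusted p = 0.00929) and -0.90 ± 0.18 for BIRC5 (limma adjusted p = 0.00498). For CDC20 it was -0.89 ± 0.20 (limma adjusted p = 0.00875) and for CCNF -0.63 ± 0.19 (limma adjusted p = 0.0376). KIF11 read 12.02 and 11.78 untreated, 11.68 and 11.46 with the mismatch shRNA, and 11.34 and 11.79 with the knockdown in H9. The CT2 arrays gave 10.91 and 11.10 untreated, 11.39 and 11.47 with the mismatch shRNA, and 11.34 and 11.18 with the knockdown. The untreated CT2 arrays were the lowest of all 12, and in H9 the highest array was untreated replicate 1. CCNF read 11.86 and 11.94 untreated, 12.42 and 12.60 with the mismatch shRNA, and 12.56 and 12.32 with the knockdown in H9. In CT2 the levels were 12.70 and 12.35 untreated, 12.37 and 12.01 with the mismatch shRNA, and 12.50 and 12.33 with the knockdown. The untreated H9 arrays were the lowest of all 12 for CCNF. TOP2A stood at 0.58 between the lines (limma adjusted p = 0.0556) and PTTG1 at -0.52 (limma adjusted p = 0.0536), both short of the threshold. The dimmer PTTG1 probe had the opposite sign, at 0.24.

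The calls between the lines depended on single arrays. Without CT2 untreated replicate 1 none of the 36 was called, with limma adjusted p of 0.118 for CDC20, 0.116 for KIF11, 0.0864 for CDC25B, 0.0617 for BIRC5 and 0.322 for CCNF. Without H9 untreated replicate 1, CDC25B and BIRC5 remained past it. CDC25B was also lost without H9 untreated replicate 2 or CT2 untreated replicate 2. CCNF was lost without any 1 of the untreated or H9 mismatch arrays. The H9 mismatch arrays do not enter the CCNF difference between untreated lines, which stayed at -0.63 without either of them. More members were called without either CT2 mismatch array, and in both settings more of all genes were called as well.

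**Figure D5:**
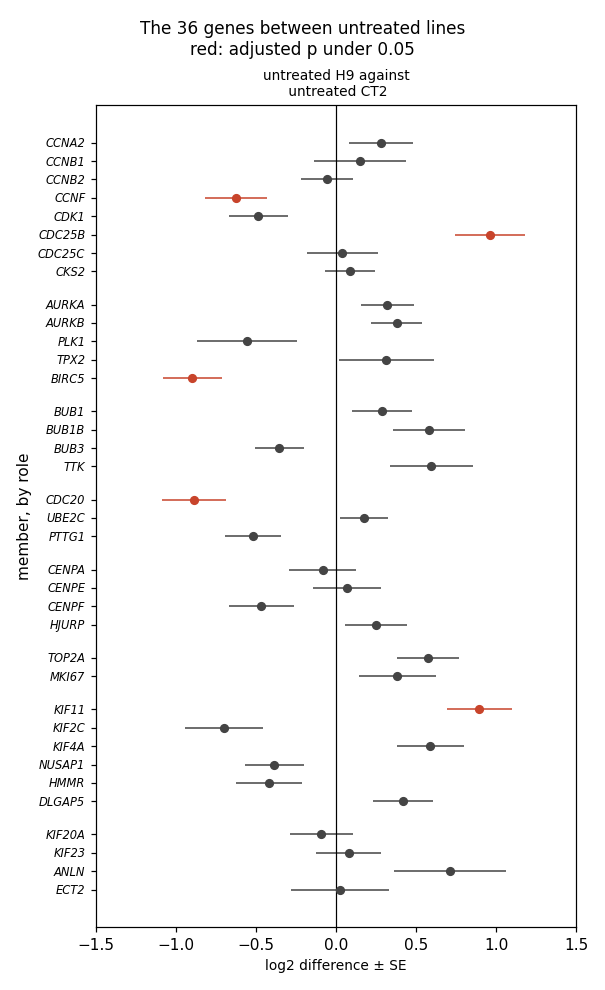
Log2 difference ± SE of each of the 36 genes in untreated H9 against untreated CT2, ordered by role, with genes of adjusted p under 0.05 in red. CDC25B and KIF11 stand to the right near 0.9, and CCNF, CDC20 and BIRC5 stand to the left.

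A further list of 71 genes of mitosis that are not among the 36, of which 67 were measured, was described in the same way. In knockdown against mismatch 3 of 67 fell and 0 rose, beside 3.38% and 3.19% of all genes. They were HMGB2, a chromatin protein abundant in dividing cells, at -0.53 (limma adjusted p = 0.0357), NEK2, a centrosome kinase, at -0.49 (limma adjusted p = 0.0423), and DEPDC1 at -0.79 (limma adjusted p = 0.0481). Without CT2 mismatch replicate 2 none of the 3 passed (limma adjusted p = 0.0796 to 0.102), and 1 other gene, PKMYT1, rose and 1, CDC23, fell. Of the 67, 49 were below 0, beside 48.2% of all genes, with a median of -0.11. For mismatch against untreated 46 of 67 were above 0, beside 52% of all genes, with a median of 0.13 and 0 called. For knockdown against untreated 33 were above 0 and 34 below, with 0 called. In CT2 alone CDC16, a subunit of the anaphase-promoting complex, rose by 0.68 (limma adjusted p = 0.0471) and HMGB2 fell by 0.94 (limma adjusted p = 0.0176), and in H9 0 were called. Neither passed without CT2 mismatch replicate 2 (0.57, limma adjusted p = 0.179, and -0.64, limma adjusted p = 0.123). Between the untreated lines 6 were higher in H9 and 1 (SKA3, a kinetochore protein, at -0.98) was lower, beside 5.99% and 8.74% of all genes. Both counts were higher without CT2 mismatch replicate 2, a setting whose share of all genes called is not given here.

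Of 17 factors known to act on transcription of G2/M genes, 16 were measured and 0 were called in knockdown against mismatch, mismatch against untreated or knockdown against untreated. Without CT2 mismatch replicate 2, RBL1 and TFDP1 were called higher in the first of these and lower in the mismatch against untreated. That setting leaves a single CT2 mismatch array, and its share of all genes called is not given here, so these calls cannot be set against a background. FOXM1 stood at -0.05 in knockdown against mismatch, MYBL2 (B-Myb) at -0.64 (limma adjusted p = 0.143) and TFDP1, the partner of the E2F factors, at 0.52 (limma adjusted p = 0.0636). Between the untreated lines 3 of 16 were called, beside 14.7% of all genes. FOXM1 was higher in H9 by 0.99 (limma adjusted p = 0.00934) and E2F5, a repressor E2F, by 0.94 (limma adjusted p = 0.0177). CDKN1A, the inhibitor p21, was lower in H9, at -1.20 (limma adjusted p = 0.0308).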

How the data were processed

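Total RNA was measured on 12 Illumina bead arrays, 2 in each of 6 groups of line and treatment, and groups were taken from the sample labels. Per the file headers, the deposited table holds mean bead intensities, not normalized, each beside a detection p-value. GenomeStudio is named, with no version, in the submitters' processing notes. The authors also deposited a table of linear intensities normalized within each line by an unnamed method, with column medians of 179.8 to 180.3, which served as an alternative. No slide, date or batch is given in the labels.

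The intensities were background-corrected with the normal-exponential model of limma 3.58.1 (R 4.3.3; offset 16, negative control levels taken from detection p-values), quantile-normalized over 12 arrays and log2-transformed. A probe was kept if it had 1 gene symbol in the platform annotation and 2 or more arrays with detection p under 0.05 (19076 probes), and each gene was read from its brightest kept probe, by the mean of all 12 arrays (13951 genes). Of the 47314 probes shared by both lines, 30108 had 1 symbol, 8 had several and 17198 had none listed. A mean per group was fitted with lmFit, and contrasts were tested two-sided with eBayes (trend and robust settings) in 7 comparisons, each adjusted by Benjamini-Hochberg over all 13951 genes. The number of arrays limits the precision: standard errors of the members were 0.11 to 0.25 for knockdown against mismatch. The procedure was tested on simulated data.

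The 36 genes, the further lists and the motifs were chosen with earlier results of these data known. Values on every array are printed for members called in any comparison, for the 2 of smallest p in a role with no call, and for members whose probes disagreed in sign in knockdown against mismatch over both lines. Outside the members, values are given for JMJD1C and for listed genes past the threshold; FOXM1, MYBL2, TFDP1, RBL1, PKMYT1 and CDC23 were added after their values were seen. Marker lists for neural progenitors, mesoderm and trophoblast were also summed: PAX6, SOX1 and ZIC1, TBXT and HAND1, and CGA and GATA3 were detected on no array, and 0 genes of these lists were called in knockdown against mismatch. Replicate numbers were checked as pairs. Correlations of replicate deviations ran from -0.32 to 0.21 within a line and from -0.37 to 0.39 between lines. These values do not decide whether the numbers pair the arrays, so a replicate block stands among the alternatives. Promoter sequences are from RefSeq (GRCh38.p14), with the first listed window of each gene. Alternatives covered background correction, scaling, the authors' table, the detection filter, the probe rule, the variance settings, array weights, a replicate block and leaving out each array.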

Additional observations from a re-analysis of the deposited data

How the results depend on the processing

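Across 47 results on single genes and 23 alternatives, 960 of 1081 values kept their side of the threshold, with any change of sign within 1 SD of the replicates. Another 103 lost it, 13 gained it, 5 uncalled values changed sign by more (CDK1, CDC25C, KIF11, KIF20A and KIF23 under median scaling) and 0 called values reversed. Most of the 47 results were not called as reported and had no call to lose, so the 960 do not measure how stable the calls were. Results that were called lost the call in 0 (JMJD1C) to 18 (TOP2A, mismatch against untreated) of the 23 alternatives. The number of the 36 genes called in knockdown against mismatch (2) became 1 under median scaling (CDC20), with no detection filter, without trend and robust settings and with a replicate block (TOP2A in these 3). Leaving out single arrays gave 1 to 7. In H9 (0) it was 2 with array weights, where 822 of all genes were called (356 as reported), and did not change without any single array. In CT2 (4) it was 2 under median scaling and with no detection filter, 0 without trend and robust settings, with array weights and with the replicate block, and 0 to 4 without single arrays. For mismatch against untreated (1) it was 0 under median scaling, the authors' table, no filter, detection on at least 6 arrays, the mean of probes, no trend, array weights and the replicate block, and 0 to 2 without single arrays. For knockdown against untreated (0) single arrays gave 0 to 1. Between the lines (5) it was 11 with quantile normalization within each line, 10 in the authors' table, and 0 to 9 without single arrays. Over all genes, 2516 were called between the lines with quantile normalization within each line and 2479 in the authors' table, against 2055 as reported. The number over all genes was lower without CT2 untreated replicate 1, which gave the 0. It was higher without either CT2 mismatch array, which gave the 9. The members' counts between the lines thus moved in the same direction as the calls over all genes in these settings. The replicate block changed no other count of members by over 1.5 times. The members' median in knockdown against mismatch was -0.052 under median scaling, where all genes had a median of 0.12 and the calls over all genes were 610 higher and 313 lower (445 and 472 as reported); without single arrays it was -0.23 to -0.16. For mismatch against untreated (0.14) it was 0.051 under median scaling and 0.11 to 0.17 without single arrays. An alternative chosen after seeing the data omitted replicate 2 of CT2 mismatch with replicate 1 of untreated H9, the array it correlated best with. It called more members than as reported in knockdown against mismatch, in H9, in mismatch against untreated and for the difference between lines (BUB1). The shares of all genes called in that setting are not given here. The number of all genes called in knockdown against mismatch (917) was 363 to 1788 without single arrays. The cause of these changes was not tested. With 2 arrays a group, differences smaller than the intervals given were not detectable.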
